A study of Mus musculus with 8 samples.

Results

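The genes described here are 39 genes of the lysosome, chosen by name for what their products do. They are 39 of the 20308 genes in the deposited tables, and all 39 were among the 13407 genes tested. By role they fall into 11 proteases, 8 glycosidases, 6 lipid handling enzymes and luminal cofactors, 8 membrane proteins, 5 genes of the proton pump and *Tfeb*, a transcription factor. RNA was sequenced from CD11b+ brain cells of 4 CSF1 OE mice and 4 control mice, all C57Bl/6 X CD1 F1 animals aged p14 or p15, and each mouse gave 1 library. In CSF1 OE mice, secreted CSF1, a growth factor for microglia, is made by a subset of GFAP+ cells through the tTA/TRE system. The labels call the other mice controls for the overexpression and do not give their alleles. The cells came from the right hemisphere by pull-down with CD11b beads after removal of myelin with Percoll. The question was whether microglia that had received excess CSF1 differed in their RNA from those of control mice.

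The lysosome is the acidic compartment in which cells break down what they have engulfed and what they recycle. Its soluble enzymes are made in the endoplasmic reticulum, tagged in the Golgi with mannose 6-phosphate and carried to it, a V-type ATPase pumps protons into its lumen, and glycosylated membrane proteins line its wall. Microglia, the resident macrophages of the brain, clear debris and synaptic material through it, and many of the genes share an E-box called the CLEAR element, to which TFEB and its relatives bind.

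Promoter sequences are shown for 5 genes on which the results below turn. They are the 300 bases of RefSeq on GRCm38.p6 that run from 250 bases before to 50 after the annotated start, printed 5′ to 3′ on the strand of the gene. Capitals mark matches to CACGTG, the E-box core within the CLEAR element, or to GAGGAAGT and its reverse complement ACTTCCTC, a form of the site of PU.1, a myeloid transcription factor. *Ctss* and *Npc2* were higher in every CSF1 OE mouse than in any control mouse, as was *Lamp1*, while *Ctsd* and *Mcoln1* overlapped between the genotypes.
Ctss, chr3:95526536-95526835, plus strand: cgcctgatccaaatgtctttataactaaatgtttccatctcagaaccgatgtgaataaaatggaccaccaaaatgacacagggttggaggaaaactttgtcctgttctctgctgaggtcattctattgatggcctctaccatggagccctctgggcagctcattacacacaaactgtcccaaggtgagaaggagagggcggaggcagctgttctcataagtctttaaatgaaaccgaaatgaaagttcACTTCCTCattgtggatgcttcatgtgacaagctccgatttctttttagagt
Npc2, chr12:84773063-84773362, minus strand: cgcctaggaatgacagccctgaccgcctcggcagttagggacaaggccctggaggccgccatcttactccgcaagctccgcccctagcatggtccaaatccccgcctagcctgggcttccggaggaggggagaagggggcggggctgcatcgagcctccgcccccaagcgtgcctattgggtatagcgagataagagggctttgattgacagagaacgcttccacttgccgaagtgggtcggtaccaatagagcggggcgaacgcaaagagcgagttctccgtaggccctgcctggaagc
Lamp1, chr8:13158911-13159210, plus strand: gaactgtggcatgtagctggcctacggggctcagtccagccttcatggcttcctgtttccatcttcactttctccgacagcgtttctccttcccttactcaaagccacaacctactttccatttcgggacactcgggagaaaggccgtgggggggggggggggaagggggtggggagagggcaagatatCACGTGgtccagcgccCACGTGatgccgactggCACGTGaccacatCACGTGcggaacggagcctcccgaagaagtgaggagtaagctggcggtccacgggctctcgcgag
Ctsd, chr7:142387778-142388077, minus strand: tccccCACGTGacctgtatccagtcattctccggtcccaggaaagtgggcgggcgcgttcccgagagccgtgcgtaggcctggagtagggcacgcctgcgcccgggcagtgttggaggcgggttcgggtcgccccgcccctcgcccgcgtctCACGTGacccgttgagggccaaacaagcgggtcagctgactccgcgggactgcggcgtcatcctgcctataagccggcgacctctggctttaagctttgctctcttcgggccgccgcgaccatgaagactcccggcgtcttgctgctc
Mcoln1, chr8:3500269-3500568, plus strand: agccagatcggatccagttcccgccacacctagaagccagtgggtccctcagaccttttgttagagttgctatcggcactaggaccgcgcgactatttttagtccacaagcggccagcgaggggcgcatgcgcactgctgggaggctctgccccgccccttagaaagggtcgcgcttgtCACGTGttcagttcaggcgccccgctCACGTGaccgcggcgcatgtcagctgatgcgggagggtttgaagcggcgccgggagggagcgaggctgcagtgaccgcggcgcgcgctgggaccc

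A window was found for 33 of the 39 genes, and none for *Atp6v0d2*, *Asah1*, *Ctsb*, *Ctsh*, *Atp6v1h* and *Npc1*. A gene can have more than 1 annotated start and so more than 1 window, as did *Ctsa*, *Cln3*, *Lgmn*, *Psap* and *Tfeb*, and a gene was counted where any of its windows held the letters. On either strand, CACGTG was present in 14 of the 33 genes (42.4%), in 11.5% of the 10105 tested genes with a window and in 8.09% of all 27025 genes with one. *Ctsa*, *Cln3* and *Lgmn* held it in 1 of their 2 windows. The longer TCACGTGA, which contains CACGTG, was present in 7 of the 33 (21.2%), against 2.15% of tested genes and 1.12% of all genes. GAGGAAGT was present in 4 of the 33, namely *Ctsc*, *Ctss*, *Gla* and *Gusb* (12.1%), against 3.75% of tested genes and 3.69% of all genes. *Lamp1* held 4 copies of CACGTG, which began 61, 45, 28 and 15 bases before the start, *Ctsd* held copies at 245 and 98 bases and *Mcoln1* at 71 and 45 bases. The match in *Ctss* to the PU.1 letters began 2 bases before the start. Of the 8 genes with no overlap between genotypes, 6 had a window, and CACGTG was present in 1 of these, *Lamp1*, and in 13 of the other 27 genes. No match means here that these letters are not in the window, and no binding was measured.

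Total counts ran from 12053259 to 15475465 per library, and a count of 0 leaves room for up to 3 counts, which is 0.177 to 0.266 CPM depending on the library, for counting error only. CPM scales each count to the TMM-normalized library size. The microglia markers summed to between 22499 and 39999 CPM in control mice and between 28875 and 40928 CPM in CSF1 OE mice. Of the 12, 5 were higher, and their median difference on the log2 scale was -0.10, but they did not move together. The largest rise was that of *Aif1*, which encodes IBA1, without overlap (log2 fold change 0.60 ± 0.15 SE, edgeR adjusted p = 0.0971). The largest fall was that of *Fcrls*, with overlap (-0.63 ± 0.19 SE, edgeR adjusted p = 0.168). *Itgam*, which encodes CD11b, had a log2 fold change of 0.10. Cells of other kinds were also present. The summed levels of several of their marker lists were lower in CSF1 OE mice, while others, such as monocytes and neutrophils, had a higher mean. Monocyte markers summed to between 37.6 and 52.9 CPM in control mice and between 38.2 and 78.1 CPM in CSF1 OE mice. Of these 4 markers, 3 were lower, and *Plac8* was higher without overlap (log2 fold change 1.70 ± 0.41 SE, edgeR adjusted p = 0.0948). Markers of endothelial cells summed to between 671 and 1151 CPM in control mice and between 324 and 789 CPM in CSF1 OE mice, with 8 of 8 lower, and those of border macrophages, which are rich in lysosomes themselves, to between 1557 and 2477 CPM and between 1252 and 1871 CPM, with 7 of 7 lower. Oligodendrocyte markers ranged from 2819 to 5924 CPM in control mice and from 1542 to 4835 CPM in CSF1 OE mice. The ranges were 230.4 to 855 CPM and 35.6 to 394 CPM for red blood cell markers. For neutrophil markers they were 42.2 to 92.5 CPM and 14.9 to 214 CPM, with 5 of 5 higher. The 214 CPM was that of CSF1 OE 2019, where CSF1 OE 1931, 1932 and 1936 had 14.9, 52.3 and 22.8 CPM. T, NK and B cell markers summed to less than 1 CPM in each mouse, and none of the 6 passed the filter on low counts. A score of endothelial, mural, glial and neuronal markers, on the log2 scale and centred on all mice, was highest in control 1934 (0.80) and lowest in CSF1 OE 2019 (-0.99). The part that these cells have in each result was not tested beyond the fits with that score and without those mice given below. The score holds no markers of border macrophages, monocytes, neutrophils or red blood cells, so the fit with it did not account for them. In bulk RNA, a change in the number of cells of a type and a change in RNA per cell cannot be told apart.

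No lysosome gene was called in either direction by edgeR, where a call required an adjusted p under 0.05 together with a fold beyond 0.7 or 1.43. Among all genes tested, 0.388% were called higher and 0.0522% lower. Yet 34 of the 39 had a higher fitted level in CSF1 OE mice and 5 a lower one, where 6002 of the 13407 tested were higher and 7405 lower. At an unadjusted p under 0.05, 10 lysosome genes were higher and 0 lower, against 10.1% and 6.44% of all genes. In 8 genes, *Ctsh*, *Ctss*, *Ctsz*, *Man2b1*, *Npc2*, *Psap*, *Lamp1* and *Atp6v0d2*, every CSF1 OE mouse lay above every control mouse, which is 20.5% of the 39 and compares with 6.84% of all genes, and in 0 genes did every CSF1 OE mouse lie below, against 3.45%. The median log2 fold change of the 39 was 0.15, and that of all genes was -0.03. Summed over the 39, control mice had 34173 ± 5957 CPM and CSF1 OE mice 40721 ± 4096 CPM (SD, n = 4), a ratio of 1.19. The genotypes overlapped, with 26799 to 39492 CPM and 36912 to 45428 CPM. The sum over all genes tested was itself higher in CSF1 OE mice, with a ratio of 1.04.

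The number of calls depended on the model. DESeq2 called 7 of the 39 higher, *Ctsh*, *Ctss*, *Ctsz*, *Man2b1*, *Npc2*, *Psap* and *Atp6v0d2*, where it called 2.09% of all genes higher. limma called *Npc2* alone, with 0.656% of all genes. With the score of other cell types as a covariate, edgeR called *Ctsh*, *Ctss* and *Npc2*, with 1.48% of all genes, and the median of the 39 was 0.08. When the range of animal numbers entered the fit, as a term that separates mice 1931 to 1936 (1 control and 3 CSF1 OE) from the other 4 and so overlaps with genotype, edgeR called *Ctsc*, *Ctsh*, *Ctss*, *Ctsz*, *Man2b1*, *Npc2* and *Psap*, with 2.26% of all genes. Each of these calls was higher in CSF1 OE mice. The labels name no batch.

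**Figure D1:**
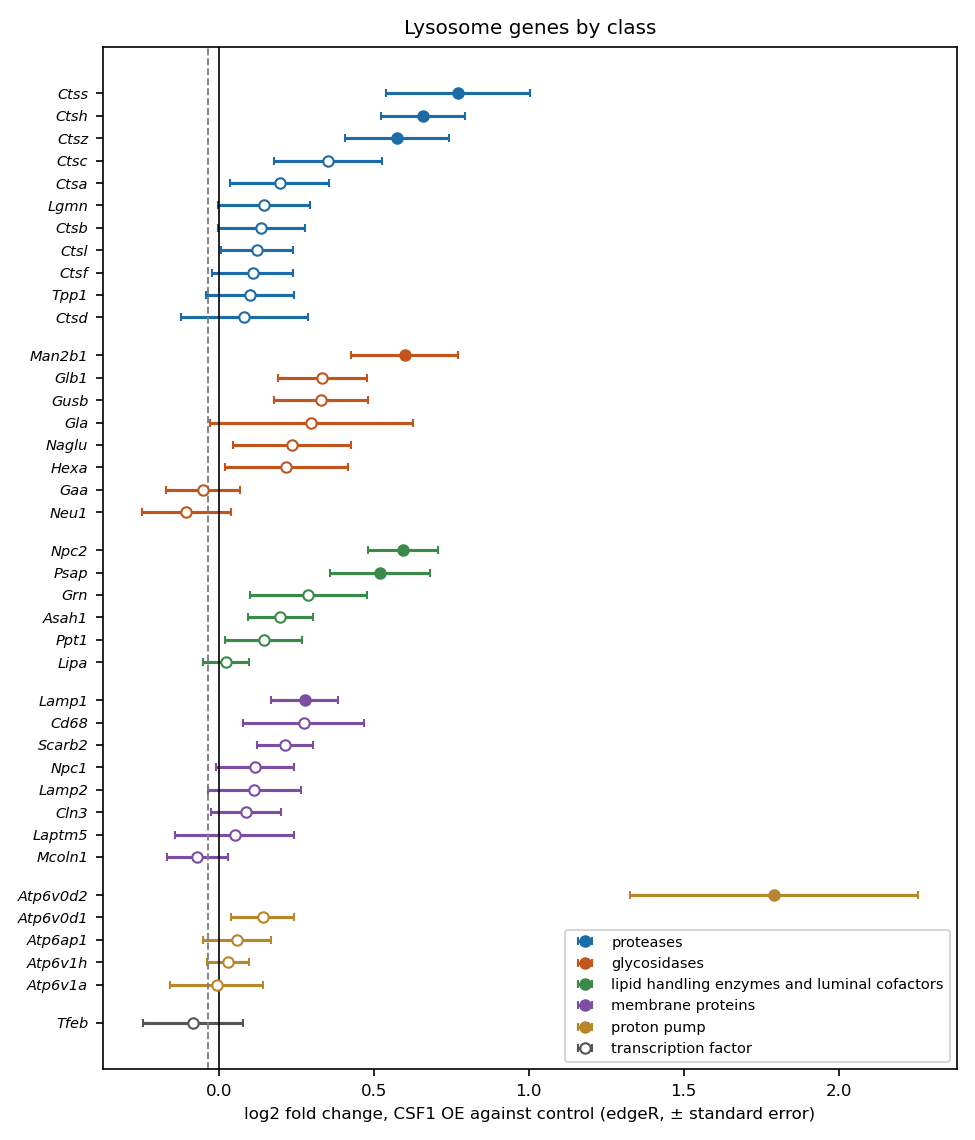
Log2 fold change of each of the 39 lysosome genes, CSF1 OE against control (x axis, edgeR, bars are the standard error), grouped and coloured by role, with filled points where every CSF1 OE mouse lay above every control mouse. The dashed line is the median of all genes tested (-0.03), and 34 of the 39 points lie above 0.

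The proteases were higher in 11 of 11 genes, where 44.8% of all genes were higher. Their median log2 fold change was 0.15 (0.08 with the covariate for other cell types and 0.10 without control 1934). Of the 11, 3 had no overlap between genotypes (27.3%, against 6.84% of all genes), all of them cathepsins. The classes here and below are small, so their shares rest on few genes. Values are given below in the order control 1827, 1872, 1874 and 1934, then CSF1 OE 1931, 1932, 1936 and 2019. Cathepsin S, the product of *Ctss* at chr3:95526786-95556403, is a cysteine protease that stays active near neutral pH and cuts the invariant chain of MHC class II. *Ctss* stood at 2178, 2252, 1753 and 1230.1 CPM in control mice and at 3057, 2487, 2883 and 4227 CPM in CSF1 OE mice. CSF1 OE 2019 was the highest mouse and control 1934 the lowest, and the lowest CSF1 OE mouse, 1932, lay above the highest control mouse. The means of 1853 ± 470.1 CPM and 3163 ± 748 CPM (SD, n = 4) gave a log2 fold change of 0.77 ± 0.23 (SE, edgeR adjusted p = 0.161). Cathepsin H, the product of *Ctsh* at chr9:90054152-90076089, trims amino acids from the start of peptides. The control mice had 197, 174, 191 and 149 CPM of *Ctsh* and the CSF1 OE mice 305, 221, 279 and 317 CPM. The genotypes did not overlap, and 3 of the 4 CSF1 OE mice lay well clear of the controls, with CSF1 OE 1932 nearest to them. With means of 178 ± 21.7 CPM and 281 ± 42.6 CPM (SD, n = 4), the log2 fold change was 0.66 ± 0.13 (SE, edgeR adjusted p = 0.0626). Cathepsin Z, encoded by *Ctsz* at chr2:174427493-174439039, removes amino acids from the end of peptides. For *Ctsz*, the values were 575, 545, 433 and 354 CPM in control mice and 839.7, 626, 660.3 and 714 CPM in CSF1 OE mice. CSF1 OE 1931 stood highest, and CSF1 OE 1932 lay just above control 1827. Its log2 fold change was 0.58 ± 0.17 (SE, edgeR adjusted p = 0.152), from 477 ± 102 CPM to 710.2 ± 93.6 CPM (SD, n = 4).

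The protease genes with the highest levels overlapped between genotypes, apart from *Ctss*. Per kilobase of exon, *Ctsd*, the aspartic protease cathepsin D, had the highest level of all 39 genes, with 2989 CPM per kb in control and 3165 in CSF1 OE mice. *Ctsd* stood at 8848, 8045, 6228 and 4990.1 CPM in control mice and at 7734, 7354, 6267 and 8409.5 CPM in CSF1 OE mice. Control 1827 held the highest value of all 8 mice and control 1934 the lowest, so the CSF1 OE mice lay inside the range of the controls. Its log2 fold change was 0.08 ± 0.21 (SE, edgeR adjusted p = 0.858), from 7028 ± 1745 CPM to 7441 ± 896 CPM (SD, n = 4). *Lgmn* encodes legumain, which cuts after asparagine and activates cathepsins, and followed *Ctsd* in control mice at 1620 CPM per kb. In CSF1 OE mice it had 1792 CPM per kb and lay below *Ctss* at 2329. The control mice had 4278, 4268, 3504 and 3003 CPM of *Lgmn* and the CSF1 OE mice 4124, 4058, 4158 and 4314 CPM. The CSF1 OE mice differed little among themselves, while control 1874 and control 1934 lay below them. The means of 3763 ± 623 CPM and 4163 ± 109 CPM (SD, n = 4) gave a log2 fold change of 0.15 ± 0.15 (SE, edgeR adjusted p = 0.653). The others, *Ctsa*, *Ctsb*, *Ctsc*, *Ctsf*, *Ctsl* and *Tpp1*, had log2 fold changes between 0.10 and 0.35. *Ctsc*, whose product activates granule proteases, was the highest of them at 0.35 ± 0.17 (SE, edgeR adjusted p = 0.349), with 2 of 4 CSF1 OE mice above every control mouse.

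**Figure D2:**
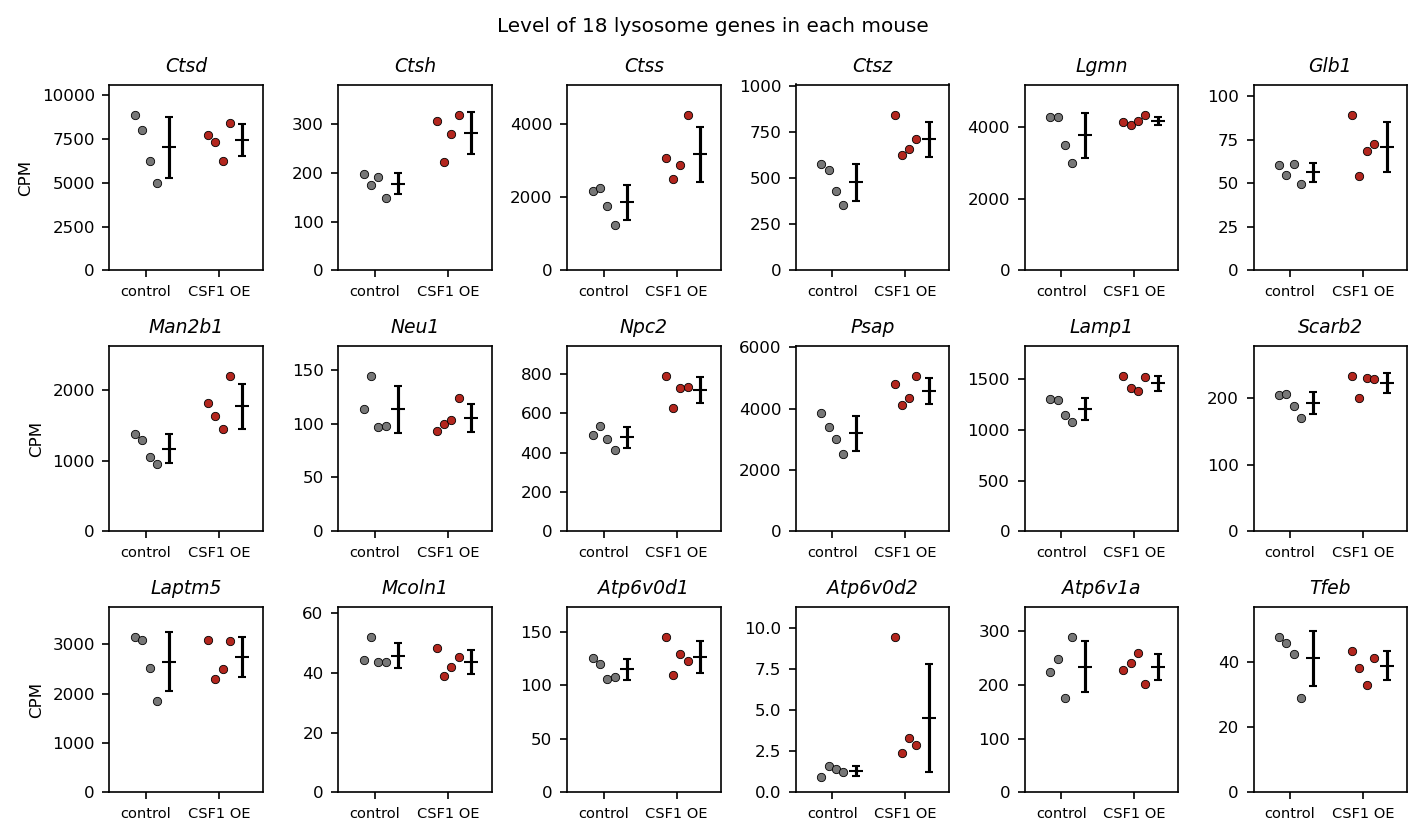
Level in CPM (y axis, from 0) of 18 lysosome genes in each control (grey) and CSF1 OE mouse (red), with the mean and SD (n = 4) beside the points. *Ctss*, *Ctsh*, *Npc2* and *Psap* are among the genes without overlap, while *Ctsd*, *Laptm5* and *Tfeb* overlap widely.

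Of the glycosidases, which remove sugars from glycoproteins and glycolipids, 6 of 8 were higher and the median log2 fold change was 0.27. In 1 gene there was no overlap (12.5%, against 6.84% of all genes). The median was 0.15 with the covariate for other cell types and 0.17 without control 1934. That gene was *Man2b1* at chr8:85083270-85098282, which encodes lysosomal alpha-mannosidase. *Man2b1* stood at 1377, 1295, 1045 and 948 CPM in control mice and at 1808, 1628, 1445 and 2185 CPM in CSF1 OE mice. CSF1 OE 2019 was the highest and the CSF1 OE mouse nearest to the controls was 1936. With means of 1166 ± 203 CPM and 1767 ± 316 CPM (SD, n = 4), the log2 fold change was 0.60 ± 0.17 (SE, edgeR adjusted p = 0.146). *Glb1* encodes beta-galactosidase. The control mice had 60.3, 54.6, 60.8 and 49.3 CPM of *Glb1* and the CSF1 OE mice 88.8, 54.1, 68.6 and 72.2 CPM. In 3 of 4 CSF1 OE mice it lay above every control mouse, and CSF1 OE 1932 lay within the controls. The means of 56.3 ± 5.42 CPM and 70.9 ± 14.3 CPM (SD, n = 4) gave a log2 fold change of 0.33 ± 0.14 (SE, edgeR adjusted p = 0.292). *Neu1*, which encodes the sialidase, had a lower fitted level in CSF1 OE mice. For *Neu1*, the values were 114, 144, 96.9 and 97.8 CPM in control mice and 92.9, 99.7, 104 and 124 CPM in CSF1 OE mice. Control 1872 was the highest of the 8 and the genotypes overlapped. From 113 ± 21.8 CPM to 105 ± 13.4 CPM (SD, n = 4), the log2 fold change of *Neu1* was -0.11 ± 0.14 (SE, edgeR adjusted p = 0.741). *Gaa*, encoding acid alpha-glucosidase, was the other glycosidase with a lower fitted level (log2 fold change -0.05 ± 0.12 SE, edgeR adjusted p = 0.848). It turned higher without control 1872, without CSF1 OE 1936 and when animal numbers entered the fit. *Gla*, *Gusb*, *Hexa* and *Naglu* ranged from 0.22 to 0.33, with overlap in each.

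Among the lipid handling enzymes and luminal cofactors, 6 of 6 were higher. The median on the log2 scale was 0.24 (0.13 with the covariate for other cell types) and 2 had no overlap (33.3%, against 6.84% of all genes). *Npc2* at chr12:84754562-84773152 encodes the luminal protein that hands cholesterol to NPC1, and it had the lowest adjusted p of the 39. *Npc2* stood at 493, 537, 469 and 413 CPM in control mice and at 788, 629.6, 731 and 736 CPM in CSF1 OE mice. The lowest CSF1 OE mouse, 1932, was above the highest control mouse, 1872, and the spread within each genotype was small. The means of 478 ± 51.6 CPM and 721 ± 66.1 CPM (SD, n = 4) gave a log2 fold change of 0.59 ± 0.11 (SE, edgeR adjusted p = 0.0558). *Psap* at chr10:60277627-60302597 encodes prosaposin, the precursor of the saposins that present sphingolipids to their hydrolases, and was among the 5 most abundant genes, with 1164 CPM per kb in control and 1667 in CSF1 OE mice. The control mice had 3849.6, 3413, 2996 and 2515 CPM of *Psap* and the CSF1 OE mice 4810.4, 4114, 4331 and 5044 CPM. CSF1 OE 2019 had the highest and control 1934 the lowest value. Its log2 fold change was 0.52 ± 0.16 (SE, edgeR adjusted p = 0.171), from 3193 ± 571 CPM to 4575 ± 427 CPM (SD, n = 4). *Grn*, encoding progranulin, a partner of prosaposin, had a log2 fold change of 0.29 ± 0.19 (SE, edgeR adjusted p = 0.475), with 2 of 4 CSF1 OE mice above the controls. *Lipa*, the acid lipase, *Asah1*, acid ceramidase, and *Ppt1*, a thioesterase, lay at 0.02, 0.20 and 0.14 on the log2 scale, all with overlap.

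Of the membrane proteins, 7 of 8 were higher, the median on the log2 scale was 0.12 and 1 had no overlap (12.5%, against 6.84% of all genes). That median was 0.01 with the covariate for other cell types, 0.04 without control 1934 and 0.06 without CSF1 OE 2019. *Lamp1* at chr8:13159161-13175338 encodes one of the main glycoproteins of the lysosomal wall. *Lamp1* stood at 1298, 1294, 1147 and 1078 CPM in control mice and at 1524, 1414, 1379 and 1519 CPM in CSF1 OE mice. Each of the CSF1 OE mice lay above the controls, by a margin that was small beside the level. The means of 1204 ± 109.5 CPM and 1459 ± 73.6 CPM (SD, n = 4) gave a log2 fold change of 0.28 ± 0.11 (SE, edgeR adjusted p = 0.252). *Scarb2* encodes LIMP-2, the receptor that carries glucocerebrosidase to the lysosome. For *Scarb2*, the values were 204, 207, 188 and 171 CPM in control mice and 232, 200.3, 230.0 and 229 CPM in CSF1 OE mice. CSF1 OE 1932 stood apart from the other CSF1 OE mice and within the range of the controls. With means of 192 ± 16.6 CPM and 223 ± 15.2 CPM (SD, n = 4), the log2 fold change was 0.21 ± 0.09 (SE, edgeR adjusted p = 0.285). *Laptm5*, a transmembrane protein of hematopoietic cells, was the most abundant gene of the class, at 699 CPM per kb in control and 724 in CSF1 OE mice. Levels of *Laptm5* were 3137, 3085, 2513 and 1853 CPM in control mice and 3091, 2300.2, 2508 and 3066 CPM in CSF1 OE mice. The genotypes overlapped from end to end. From 2647 ± 599.9 CPM to 2741 ± 399 CPM (SD, n = 4), the log2 fold change of *Laptm5* was 0.05 ± 0.19 (SE, edgeR adjusted p = 0.912). *Mcoln1*, which encodes the calcium channel TRPML1, was the gene with the lower level. *Mcoln1* stood at 44.1, 51.8, 43.7 and 43.5 CPM in control mice and at 48.5, 38.9, 42.0 and 45.1 CPM in CSF1 OE mice. Control 1872 was above the other 3 controls, and the genotypes overlapped. The means of 45.8 ± 4.03 CPM and 43.6 ± 4.12 CPM (SD, n = 4) gave a log2 fold change of -0.07 ± 0.10 (SE, edgeR adjusted p = 0.747). *Cd68*, often used as a marker of phagocytes, had a log2 fold change of 0.27 ± 0.20 (SE, edgeR adjusted p = 0.516), and *Lamp2*, *Npc1* and *Cln3* lay between 0.09 and 0.12.

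Of the 5 genes of the proton pump, 4 were higher and the median on the log2 scale was 0.06. The 1 without overlap (20%, against 6.84% of all genes) is one of a pair of paralogs. *Atp6v0d1* and *Atp6v0d2* encode alternative d subunits that join the membrane part of the pump to its catalytic part, the first in most cells and the second in osteoclasts, macrophages and kidney. *Atp6v0d2*, at chr4:19876841-19922605, had 14, 23, 19 and 21 counts in control mice and 115, 33, 49 and 33 counts in CSF1 OE mice. For *Atp6v0d2*, the values were 0.941, 1.59, 1.44 and 1.24 CPM in control mice and 9.44, 2.42, 3.34 and 2.92 CPM in CSF1 OE mice. All CSF1 OE mice lay above all controls, and CSF1 OE 1931 lay far above the other 3. The means of 1.30 ± 0.280 CPM and 4.53 ± 3.30 CPM (SD, n = 4) gave a log2 fold change of 1.79 ± 0.47 (SE, edgeR adjusted p = 0.113). Without CSF1 OE 1931 the log2 fold change was 1.15. The control mice had 126, 119.7, 106 and 107 CPM of *Atp6v0d1* and the CSF1 OE mice 145, 109, 129 and 123 CPM. The genotypes overlapped. Its log2 fold change was 0.14 ± 0.10 (SE, edgeR adjusted p = 0.519), from 115 ± 9.55 CPM to 127 ± 14.7 CPM (SD, n = 4). Per kilobase, *Atp6v0d2* was between 0.494% and 0.894% of *Atp6v0d1* in control mice and between 1.47% and 4.31% in CSF1 OE mice, so the d1 form made up nearly all of the pair in both genotypes. *Atp6v1a* encodes the catalytic A subunit. *Atp6v1a* stood at 224, 248, 175 and 289 CPM in control mice and at 227, 242, 259.7 and 202 CPM in CSF1 OE mice. Control 1934 was the highest mouse and control 1874 the lowest. The means of 234 ± 47.3 CPM and 233 ± 24.3 CPM (SD, n = 4) gave a log2 fold change of -0.01 ± 0.15 (SE, edgeR adjusted p = 0.982). *Atp6v1h* and *Atp6ap1* were also near 0, at 0.03 and 0.06 on the log2 scale. The class as a whole summed to 728 ± 49.3 CPM in the controls against 756 ± 32.8 CPM in CSF1 OE mice (SD, n = 4). That ratio was 1.04, as was the ratio for the sum of all genes tested.

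*Tfeb*, which encodes the master regulator of lysosomal gene expression, was the only transcription factor of the 39. *Tfeb* stood at 47.7, 46.0, 42.5 and 29.1 CPM in control mice and at 43.4, 38.2, 33.1 and 41.2 CPM in CSF1 OE mice. All CSF1 OE mice lay within the range of the controls. From 41.3 ± 8.43 CPM to 39.0 ± 4.50 CPM (SD, n = 4), the log2 fold change of *Tfeb* was -0.08 ± 0.16 (SE, edgeR adjusted p = 0.813). Its nuclear entry is controlled by phosphorylation, which RNA does not measure.

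The same mice often stood at the ends of the range. Control 1934 was the lowest control mouse in 32 of the 39 genes, where it was lowest in 37.6% of all genes, and control 1827 was the highest in 19 (28.7% of all genes). CSF1 OE 1932 was the lowest CSF1 OE mouse in 25 (24.4% of all genes). CSF1 OE 2019 was the highest in 20 (30.8% of all genes) and CSF1 OE 1931 in 14 (18.7%). The summed microglia markers were likewise lowest among controls in 1934 (22499 CPM) and highest among CSF1 OE mice in 2019 (40928 CPM). For these markers, CSF1 OE 1936 and 1932 were low, at 28875 and 28970 CPM. The highest control was 1872 (39999 CPM), followed by 1827 (39441 CPM). Within control mice, the median coefficient of variation was 15.7% for the 39 genes and 14.6% for all genes, and within CSF1 OE mice it was 11.6% and 15.1%. Without control 1934, 33 of the 39 were higher, the median log2 fold change was 0.10 and that of all genes 0.00. Without CSF1 OE 2019, 34 were higher and the median was 0.13. The number at an unadjusted p under 0.05 was 7 in each case. In at least 1 of 16 alternatives the direction of 8 genes changed. *Ctsd*, *Laptm5*, *Neu1*, *Atp6v1a* and *Gaa* turned when a mouse was left out and under another fit, *Lamp2* and *Atp6ap1* only with the covariate for other cell types, and *Tfeb* only with the term for animal numbers. The 8 genes without overlap together averaged 8551 CPM in the controls against 12680.0 CPM in CSF1 OE mice, a ratio of 1.48 that follows from how they were picked. The other 31 had a ratio of 1.09, where the sum of all genes tested had 1.04.

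**Figure D3:**
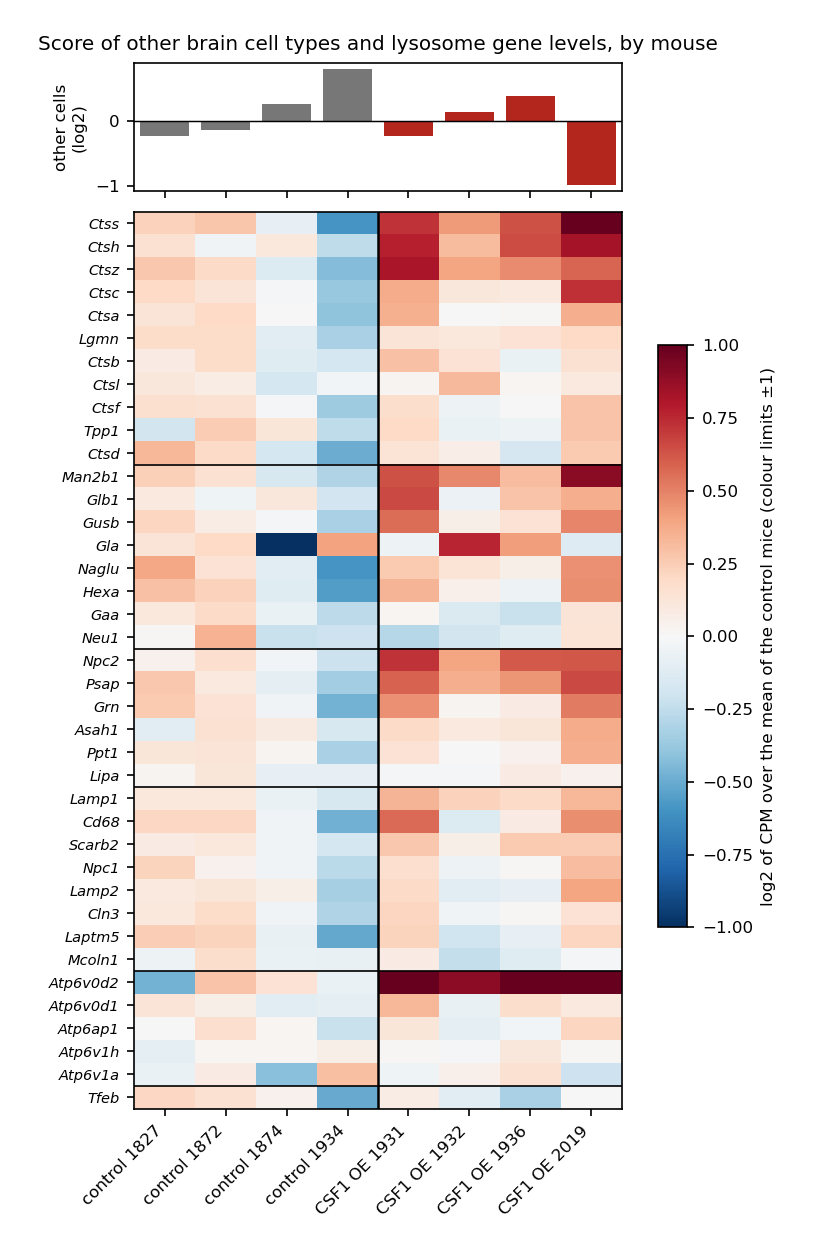
Each row is a lysosome gene, each column a mouse, and the colour is the log2 ratio of its CPM to the mean of the control mice, cut at ±1, with the score of other brain cell types above. Control 1934, with a score of 0.80, is the lowest control in 32 of the 39 rows, and CSF1 OE 2019 has a score of -0.99.

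Around the 39, another 118 genes of the pathway were listed in 9 groups, and 112 could be tested. Of these, 70 were higher (62.5%, against 44.8% of all genes) and 42 lower, with a median log2 fold change of 0.08. At an unadjusted p under 0.05, 19 were higher (17.0%, against 10.1% of all genes) and 6 lower (against 6.44%). In 9 (8.04%, against 6.84% of all genes) there was no overlap with CSF1 OE above, and in 2 with CSF1 OE below (against 3.45%). The edgeR fit called 0. limma also called 0. DESeq2 called *Cst7*, *Cstb* and *Slc11a1* higher and *Napsa* and *Abcb9* lower, of 110 tested. Over all genes it called 2.09% higher and 1.22% lower. With the covariate for other cell types, edgeR called *Cst7* higher and *Hyal2* lower (1.48% of all genes higher and 1.37% lower). The fit with animal numbers called 8 higher and 4 lower (2.26% of all genes higher and 7.24% lower). The protease inhibitors were higher in 3 of 3 tested. *Cst7* encodes cystatin F, an inhibitor of cathepsins made by myeloid cells. Levels of *Cst7* were 5.37, 4.84, 3.70 and 2.19 CPM in control mice and 11.0, 9.70, 6.68 and 11.4 CPM in CSF1 OE mice. All CSF1 OE mice lay above all controls. The means of 4.03 ± 1.41 CPM and 9.70 ± 2.14 CPM (SD, n = 4) gave a log2 fold change of 1.27 ± 0.30 (SE, edgeR adjusted p = 0.0894). *Cst3*, which encodes cystatin C, had a log2 fold change of 0.11 ± 0.32 (SE, edgeR adjusted p = 0.878). Of the other 7 proteases, 3 were higher and 4 lower, with the largest differences in opposite directions. *Ctse* stood at 0.470, 0.622, 0.378 and 0.237 CPM in control mice and at 0.903, 0.735, 0.886 and 7.79 CPM in CSF1 OE mice. *Ctse* encodes cathepsin E, and CSF1 OE 2019 stood far above the other mice, which were all under 1 CPM. From 0.427 ± 0.162 CPM to 2.58 ± 3.47 CPM (SD, n = 4), the log2 fold change of *Ctse* was 2.56 ± 0.88 (SE, edgeR adjusted p = 0.204). For *Napsa*, the values were 2.22, 4.22, 6.80 and 3.73 CPM in control mice and 1.31, 2.20, 1.91 and 2.04 CPM in CSF1 OE mice. *Napsa* encodes an aspartic protease, and its genotypes did not overlap, with CSF1 OE below (log2 fold change -1.18 ± 0.35 SE, edgeR adjusted p = 0.161). That separation was by a margin too small to matter, with CSF1 OE 1932 at 2.20 CPM and control 1827 at 2.22 CPM.

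Of 30 other hydrolases, 20 were higher and 10 lower, with a median log2 fold change of 0.13. The highest log2 fold change was that of *Arsb*, arylsulfatase B (0.51 ± 0.20 SE, edgeR adjusted p = 0.244), and the lowest that of *Hyal1*, a hyaluronidase (-0.70 ± 0.32 SE, edgeR adjusted p = 0.319). Of 19 other membrane proteins tested, 10 were higher and 9 lower. *Slc11a1* encodes the metal transporter NRAMP1 of phagosomes. *Slc11a1* stood at 120.1, 117, 89.9 and 65.7 CPM in control mice and at 182, 132, 148 and 164 CPM in CSF1 OE mice. Every CSF1 OE mouse lay above the controls. With means of 98.1 ± 25.5 CPM and 156 ± 21.3 CPM (SD, n = 4), the log2 fold change was 0.67 ± 0.19 (SE, edgeR adjusted p = 0.142). *Cd63*, a tetraspanin of late endosomes chosen like *Cstb* and *Hyal2* after values were seen, was another without overlap (0.41 ± 0.10 SE, edgeR adjusted p = 0.0937). *Abcb9*, a peptide transporter, had its CSF1 OE mice below all controls (-0.60 ± 0.17 SE, edgeR adjusted p = 0.147).

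Of 15 other pump subunits tested, 11 were higher and 4 lower, from *Atp6v1g2*, a G subunit of neurons, at -0.78 ± 0.30 (SE, edgeR adjusted p = 0.246), to *Atp6v1f* at 0.25 ± 0.10 (SE, edgeR adjusted p = 0.255). In hydrolase sorting, 7 of 9 were higher, and the receptors that bind the mannose 6-phosphate tag lay at opposite ends, with *M6pr* at 0.27 ± 0.12 (SE, edgeR adjusted p = 0.294) and *Igf2r* at -0.42 ± 0.26 (SE, edgeR adjusted p = 0.448). Of the relatives of *Tfeb*, *Tfe3* was at 0.19 ± 0.21 (SE, edgeR adjusted p = 0.68) and *Tfec* at -0.36 ± 0.25 (SE, edgeR adjusted p = 0.51), with 1 of 3 higher. The mTORC1 docking genes were higher in 9 of 16, from *Rragd*, a Rag GTPase (-0.45 ± 0.41 SE, edgeR adjusted p = 0.607), to *Lamtor1*, a Ragulator subunit (0.28 ± 0.11 SE, edgeR adjusted p = 0.259). The late endosome fusion genes were higher in 6 of 10, with *Rab7*, the GTPase of late endosomes, at 0.26 ± 0.11 (SE, edgeR adjusted p = 0.269) and *Plekhm1*, an adaptor of fusion, at -0.20 ± 0.11 (SE, edgeR adjusted p = 0.382).

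**Figure D4:**
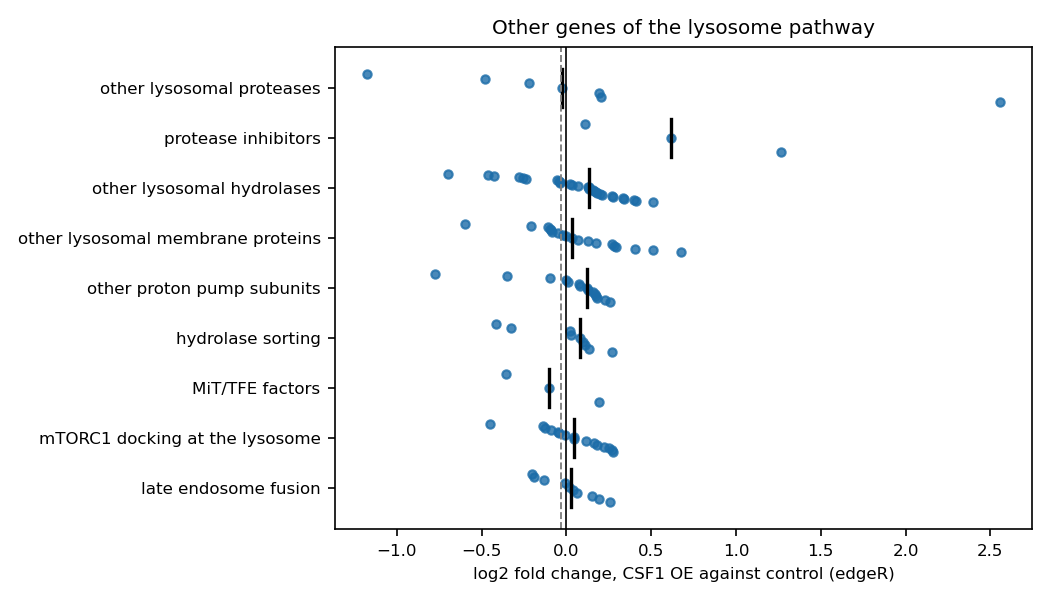
Log2 fold change of the 112 other lysosome pathway genes that could be tested, CSF1 OE against control (x axis, edgeR), by group (y axis), with each point a gene and each black bar the median of the group. The dashed line is the median of all genes tested (-0.03), and genes lie on both sides of it in each group but the protease inhibitors, with *Ctse* (2.56) and *Cst7* (1.27) farthest to the right.

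Reads from overlapping genes limit some values. The library kit does not mark strand, so reads in exons shared with a gene on the opposite strand cannot be told apart, as for *Lamp1* with *Grtp1* over 249 bases and *Ctsz* with *Nelfcd* over 10 bases in GENCODE M21. *Ctsd* shares 808 exon bases with the gene model *Gm49369* and *Glb1* 165 with *Tmppe*, each on its own strand.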

How the data were processed

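RNA of CD11b+ brain cells from 4 control and 4 CSF1 OE mice was sequenced, with 1 library per mouse. The authors mapped reads with Bowtie 1.0.0 and estimated expression with RSEM 1.2.7, after bcl2fastq 1.8.4 and on mm10 according to the submitters' processing notes. The annotation and strand setting are not given in the sources used here. RSEM shares reads of ambiguous origin among the genes they match, and the deposited expected counts per gene carry no normalization. A second deposited table holds a signal, for which the authors divided each mouse's expected counts by 1 size factor. All columns were mapped to a mouse by its animal number (0 left over).

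Expected counts were rounded and compared by the quasi-likelihood test of edgeR 4.0.16 under R 4.3.3 (TMM, filterByExpr, glmQLFit and glmQLFTest) with Benjamini-Hochberg adjustment over 13407 genes. The study's fold limits of 0.7 and 1.43 were used, and EBSeq was not run here. Fitting scripts were tested on simulated data. The members, lists and tests were chosen with earlier results of these data known. Members given mouse by mouse are those with no overlap or an unadjusted p under 0.05, and the largest rise and largest fall of each class. To these were added the 5 members of highest CPM per kb of exon and both d subunits of the pump. The highest and lowest fold change of each pathway list were also named. *Ctsc*, *Gaa*, *Grn* and *Cd68* were given with SE and adjusted p outside these rules. Alternatives were DESeq2 1.42.0, limma 3.58.1 on log2 of the normalized values with a pseudocount of 1, upper-quartile factors, no filter, at least 10 counts per library, a robust prior, no fold threshold, a term for animal numbers, a covariate for other cell types and each mouse left out. Positions and lengths are from GENCODE M21.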

Additional observations from a re-analysis of the deposited data

Results flagged for a closer look

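In 3 of 48 groups of 4 mice, over 18 lysosome genes, the sum of all 39 and the sums of 5 classes, 1 mouse stood apart from the other 3 by Dixon's test at the 95% level. Chance flags about 1 in 20 groups. *Scarb2* was at 200 CPM in CSF1 OE 1932, where the other CSF1 OE mice had 229 to 232 CPM. *Mcoln1* was 51.8 CPM in control 1872, where the other controls had 43.5 to 44.1 CPM. *Atp6v0d2* was 9.44 CPM in CSF1 OE 1931, where the other CSF1 OE mice had 2.42 to 3.34 CPM.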

How the results depend on the processing

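The number of lysosome genes called higher was 0 with edgeR and moved to 7 with DESeq2, 1 with limma, 3 with the covariate for other cell types and 7 with the term for animal numbers. That term also gave 22 genes at an unadjusted p under 0.05, in place of 10, and a median log2 fold change of 0.16 for the proton pump, in place of 0.06. With the term, edgeR called 2.26% of all genes higher and 7.24% lower, against 0.388% and 0.0522% without it. The share of all genes at that unadjusted p was not counted for this fit. The term overlaps with genotype. With upper-quartile factors, either filter, a robust prior or no fold threshold, edgeR called 0. With each mouse left out, 0 were called, between 33 and 37 were higher and between 7 and 12 had an unadjusted p under 0.05. The share of all genes at that p was not counted in these fits. The median log2 fold change of the 39, 0.15 in the fit of all mice, then lay between 0.10 (without control 1934) and 0.21 (without control 1827). It was 0.08 with the covariate for other cell types and 0.31 with the term for animal numbers. By class, the covariate and the term gave 0.08 and 0.32 for proteases, 0.15 and 0.45 for glycosidases, 0.13 and 0.43 for the lipid handling group and 0.01 and 0.29 for membrane proteins. The pump median was 0.04 with upper-quartile factors and 0.04 to 0.12 with each mouse left out, and that of the membrane proteins 0.04 to 0.18.

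Some genes changed direction. With the covariate for other cell types, the log2 fold changes were -0.055 for *Ctsd*, -0.085 for *Laptm5*, 0.076 for *Atp6v1a*, -0.027 for *Lamp2* and -0.024 for *Atp6ap1*, and limma gave 0.011 for *Atp6v1a*. With the term for animal numbers they were 0.043 for *Neu1*, 0.098 for *Gaa* and 0.13 for *Tfeb*. With each mouse left out, the range was -0.038 to 0.21 for *Ctsd*, -0.19 to 0.033 for *Neu1*, -0.074 to 0.14 for *Laptm5* and -0.12 to 0.12 for *Atp6v1a*. The cause was not tested. No paired analysis was run, because the labels give nothing that pairs a control mouse with a CSF1 OE mouse. Depth limits *Atp6v0d2*, with 14 to 23 counts in control mice, *Napsa*, with as few as 16 counts in a mouse, and *Ctse*, with as few as 4.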
